A study of Mus musculus with 2 samples.

Results

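Chromatin immunoprecipitation followed by sequencing (ChIP-seq) with an antibody to REV-ERBα gave 19 listed binding peaks in a pair of genomic windows set around Smad3 and Runx1, out of 8884 peaks in all. A peak was taken as a member if its midpoint lay on chromosome 9 from 63470000 to 63640000 (Smad3, 170 kb) or on chromosome 16 from 92560000 to 92900000 (Runx1, 340 kb), in mm9 coordinates. Smad3 had 9 members and Runx1 had 10. The cells were wild-type mouse T helper 17 (Th17) cells in primary culture, CD4 T cells that secrete interleukin-17. There was 1 ChIP sample, and 1 sample of input DNA from such cells as its control; the labels give no treatment, time, age or strain. No value below therefore has a replicate check. Only the peak list of the ChIP sample was used. It holds no expression values, so the identity of the cells could not be checked against marker genes. The windows were chosen by where the listed peaks lie, and the peaks themselves were selected on their tags, score and enrichment by the authors' thresholds, so all values are descriptions with no test. Intervals are 95% and cover counting error only.

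REV-ERBα belongs to the nuclear receptors and is part of the circadian clock. It represses transcription through a DNA element that RORγt, the lineage factor of Th17 cells, can bind as well. Smad3 is carried into the nucleus after the TGF-β receptor phosphorylates it and there regulates transcription together with Smad4; TGF-β is one of the cytokines that steer CD4 T cells towards the Th17 or the regulatory fate. Runx1 is the DNA-binding subunit of a core-binding factor, works with the partner CBFβ, is needed for T cell development, and is known to act together with RORγt on the gene of interleukin-17A and with Foxp3 in regulatory T cells. In a RefSeq table of the GRCm38 assembly, the protein-coding genes next to Smad3 are Aagab and Smad6, and those next to Runx1 are Clic6 and Setd4. That assembly is not the one of the peak list. For this reason no peak was placed in an exon, an intron or a promoter, and no sequence of a peak is shown.

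At Smad3 the binding formed an isolated group. All 9 peaks lay within 63.6 kb between the first and the last midpoint, 37.4% of the window. The first 52.6 kb and the last 53.8 kb of the window held no peak. Outside the window the next listed peak towards lower coordinates lay 394 kb from the first member, and the next towards higher coordinates lay 435 kb from the last. These outer peaks, at chr9:63128940-63129246 and chr9:64020823-64021129, had 14 and 17 ChIP tags, 1.9 and 0.9 scaled input tags and scores of 14 and 12. No listed peak lay closer to an edge of the window on the outside than 341 kb, so moving the edges by less than that adds no peak. Empty stretches of about this length are common in the list: of 7462 windows of 340 kb over the genome, 62.6% held no peak.

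The Smad3 group opened with a pair of peaks 3.43 kb apart. Peak 1 at chr9:63522477-63522783 had 22 ChIP tags (95% Poisson interval 13.8 to 33.3), 2.8 scaled input tags and a score of 18. Here the score is the height the authors' caller gave the peak. Peak 2 at chr9:63525907-63526213 had 24 tags, 4.7 scaled input tags, the highest input of the 9, and a score of 20. The tag counts of this pair differed by less than their counting error. Peak 2 had more tags than 84.7% of all listed peaks but was only 5.08-fold over input, where 10.2% of listed peaks were lower.

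After a stretch of 17.3 kb with no peak came 5 peaks in a row, each at most 10 kb from the next. Peak 3 at chr9:63543249-63543555 was the weakest in the window, with 10 tags (4.80 to 18.4), 0.9 scaled input tags and a score of 9, which is the caller's threshold. Peak 4 at chr9:63552603-63552909 had 13 tags, 2.8 scaled input tags and a score of 13. Peak 5 at chr9:63559724-63560030 had 21 tags, 2.8 scaled input tags and a score of 16. The middle of the row was thus higher than its start, though the intervals of peaks 3 and 5 overlap. Peak 6 at chr9:63563951-63564257 had 19 tags, 0.9 scaled input tags and a score of 15. Peak 7 at chr9:63569583-63569889 had 14 tags, 1.9 scaled input tags and a score of 12. With its low input, peak 6 was the most enriched of the row at 20.1-fold, but this rests on 1 input tag and has an interval of 3.20 to 835. The other 4 of the row ran from 4.58-fold to 10.6-fold.

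This row spanned 26.6 kb, from 63543249 to 63569889, and held 77 tags. Rows of at least 5 peaks with no midpoint distance above 10 kb numbered 11 in the whole list and took in 0.653% of all peaks. By summed tags the Smad3 row ranked 10 of the 11, where the highest had 220 tags and the lowest 72. It was therefore low in summed tags among the 11 rows. Its single peaks had 10 to 21 tags, on both sides of the list's median of 15.

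The group closed with its strongest peak. Peak 8 at chr9:63580433-63580739 had 16 tags, 2.8 scaled input tags and a score of 14. Peak 9 at chr9:63586094-63586400, 5.66 kb further on, had 42 tags (30.3 to 56.8), 1.9 scaled input tags and a score of 37. The interval of peak 9 did not include the count of any other Smad3 peak. That interval did overlap the intervals of peaks 1, 2 and 5. Peak 9 held 23.2% of the 181 tags in the 9 peaks, and ranked 78 in the whole list and 9 on chromosome 9 by tags. It was 22.2-fold over input (5.78 to 189, from 2 input tags). Its enrichment over the surrounding region, 11.1-fold, was also the highest of the 9, which otherwise ran from 4.96-fold to 8.94-fold.

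**Figure D1:**
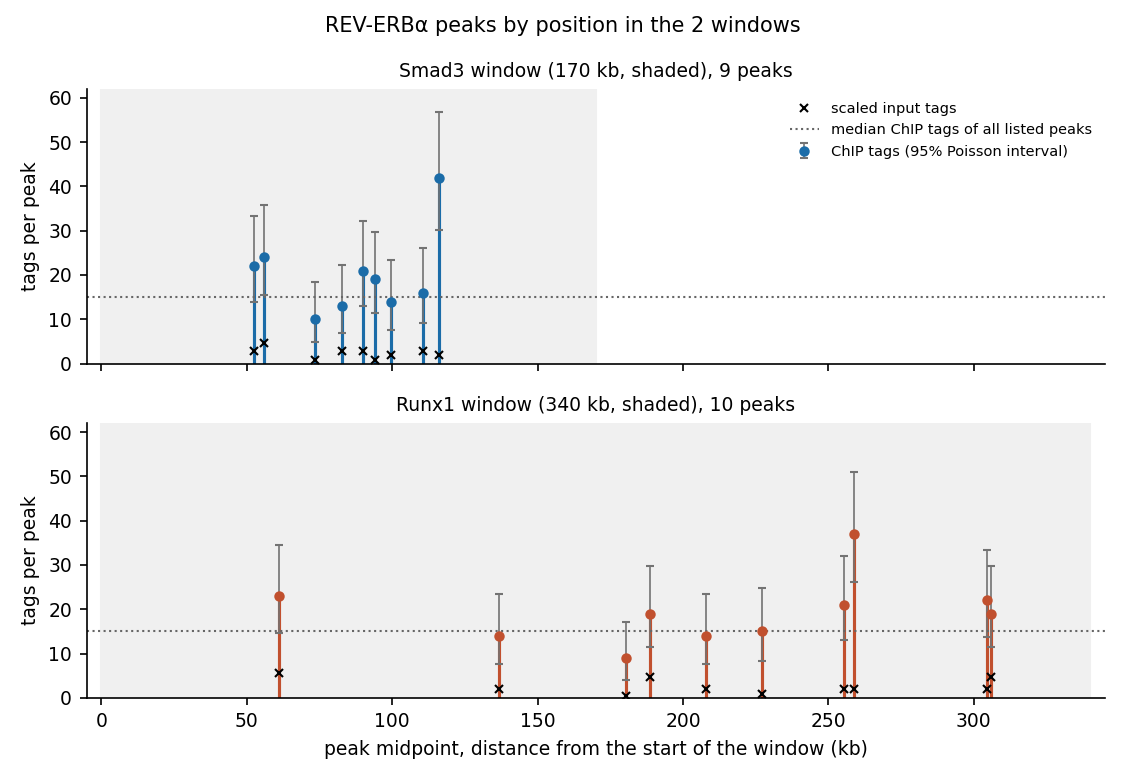
Peaks of the Smad3 window (top) and the Runx1 window (bottom) by the distance of their midpoint from the window's start in kb, with ChIP tags per peak on the vertical axis. Dots are single peaks of the 1 ChIP sample with 95% Poisson intervals, crosses are scaled input tags, shading is the window and the dotted line is the median of all listed peaks, 15 tags; the Smad3 peaks sit in 63.6 kb with the strongest last, while the Runx1 peaks are spread over 245 kb.

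At Runx1 the binding was spread out, with solitary peaks and close pairs. The 10 peaks lay within 245 kb, 71.9% of the window, and the first 61.1 kb and last 34.3 kb of the window held none. The next listed peaks outside were 222 kb below the first member, at chr16:92398994-92399300, and 98.2 kb above the last, at chr16:92963813-92964119. They had 17 and 11 tags, 0.9 and 0.5 scaled input tags and scores of 16 and 10. The nearest one lay 63.97 kb beyond the upper edge.

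The peaks at the low-coordinate end stood alone. Peak 1 at chr16:92620986-92621292 had 23 tags (14.6 to 34.5), 5.7 scaled input tags and a score of 19. Its input was the highest of all 19 peaks in both windows, and at 4.06-fold it lay just inside the authors' 4-fold threshold. A stretch of 75.7 kb without a peak, the longest in either window, separated it from peak 2. Peak 2 at chr16:92696732-92697038 had 14 tags, 1.9 scaled input tags and a score of 11, and the next 43.5 kb were again empty.

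A looser series of 4 peaks followed. Peak 3 at chr16:92740259-92740565 was the weakest of all 19, with 9 tags (4.12 to 17.1) and a score of 9. Its input was listed at 0.5 scaled tags, the lowest value in the list, which stands for no input tag. Its listed 19.0-fold enrichment therefore follows from that lowest value and measures no ratio. Peak 4 at chr16:92748583-92748889, 8.32 kb away, had 19 tags, 4.7 scaled input tags and a score of 17. It was 4.02-fold over input, and no listed peak had a lower fold. Peak 5 at chr16:92767704-92768010 had 14 tags, 1.9 scaled input tags and a score of 14. Peak 6 at chr16:92787060-92787366 had 15 tags, 0.9 scaled input tags and a score of 13. These 2 were more than 19 kb from any other peak, and neither stood out from the list's median of 15 tags.

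The strongest Runx1 peak, peak 8, belonged to a pair near the upper end. Peak 7 at chr16:92815143-92815449 had 21 tags (13.0 to 32.1), 1.9 scaled input tags and a score of 18. Peak 8 at chr16:92818771-92819077, 3.63 kb further on, had 37 tags (26.1 to 51.0), 1.9 scaled input tags and a score of 32. Peak 8 ranked 172 in the list and 6 on chromosome 16, and held 19.2% of the 193 tags in the 10 peaks. Its interval did not include the count of any other Runx1 peak. That interval did overlap the intervals of peaks 1, 4, 7, 9 and 10. Peak 8 was 19.6-fold over input (5.05 to 168, from 2 input tags). It was only 5.33-fold over the surrounding region, where 15.2% of listed peaks were lower. Peak 7 was 11.1-fold over input and 4.11-fold over the region, just above the authors' local threshold of 4-fold, with 0.788% of listed peaks lower.

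A last, tight pair lay 45.7 kb above. Peak 9 at chr16:92864476-92864782 had 22 tags, 1.9 scaled input tags and a score of 18, and peak 10 at chr16:92865582-92865888 had 19 tags, 4.7 scaled input tags and the same score. Their midpoints were 1.11 kb apart, the shortest distance in either window, where the caller allowed no less than 612 bp. The pair was alike in tags and score but not in input. Peak 9 was 11.6-fold enriched and peak 10 was 4.02-fold, with intervals of 2.86 to 102 and 1.45 to 13.8 that overlap.

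More peaks per unit length were listed in the Smad3 window than in the Runx1 window. It held 5.29 peaks per 100 kb (2.42 to 10.05) and the Runx1 window 2.94 (1.41 to 5.41), a ratio of 1.8 with an interval of 0.647 to 4.93 that includes 1. The densities therefore differed by less than their counting error. They also depended on what was counted. Among peaks at least 8-fold over input, Smad3 had 1.76 and Runx1 1.47 per 100 kb, a ratio of 1.2. That Runx1 count included peak 3, whose listed fold measures no ratio. Between the first and the last peak the densities were 14.1 and 4.09 per 100 kb. With each run of peaks at most 10 kb apart counted once, Smad3 had 3 and Runx1 had 7, or 1.76 and 2.06 per 100 kb, a ratio of 0.857 in the other direction. The stretch of 170 kb with the most peaks inside the Runx1 window held 9, as many as the Smad3 window of that length. Over 63.6 kb, the extent of the Smad3 group, no stretch of the Runx1 window held more than 4.

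Neighbouring peaks lay closer together at Smad3, by the median. The 8 distances between neighbouring Smad3 peaks ran from 3.43 to 17.3 kb with a median of 6.39 kb, and 6 of them were at most 10 kb. The 9 distances at Runx1 ran from 1.11 to 75.7 kb with a median of 19.4 kb, and 3 were at most 10 kb. A listed neighbour within 10 kb was found for 9 of 9 Smad3 peaks and for 6 of 10 Runx1 peaks, where 33.7% of all listed peaks had one. Within 5 kb there was one for 4 of 9 Smad3 peaks (44.4%) and for 4 of 10 Runx1 peaks (40%), where 18.5% of all listed peaks had a neighbour that close. In fixed bins of 10 kb from the window's start, 12 of 17 Smad3 bins (70.6%) and 27 of 34 Runx1 bins (79.4%) held no peak, and no bin held more than 2. At Smad3 the empty bins were those from 0 to 50 kb, 60 to 70 kb, 100 to 110 kb and 120 to 170 kb. At Runx1 the bins with a peak were those starting at 60, 130, 180, 200, 220, 250 and 300 kb, and all others were empty. A stretch without a listed peak is not shown to be unbound, because a site needed a score of 9 and had to pass the authors' filters over input and over the surrounding region. Of 14274 putative peaks in the whole library, these filters removed 3533 and 1857, and their positions were not used here.

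**Figure D2:**
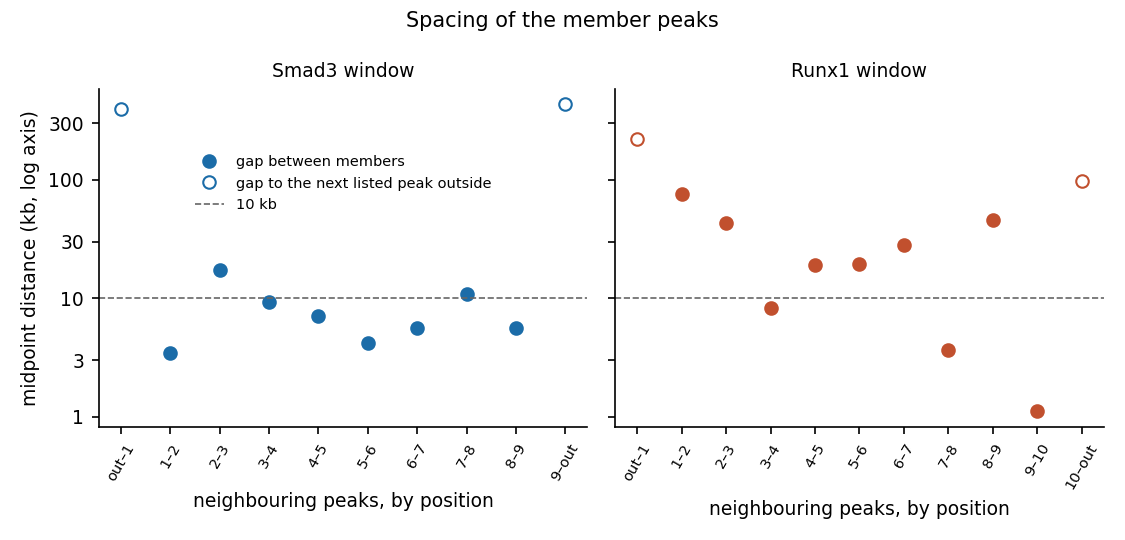
Distance between neighbouring peak midpoints in kb (log axis), in order of position, for the Smad3 window (left) and the Runx1 window (right). Filled dots are distances between members, open dots are distances to the next listed peak outside, and the dashed line marks 10 kb; Smad3 distances stay at or under 17.3 kb and then jump to 394 and 435 kb, while Runx1 distances run from 1.11 to 75.7 kb.

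The strength of single peaks overlapped between the loci. Tags per peak ran from 10 to 42 with a median of 19 at Smad3 and from 9 to 37 with a median of 19 at Runx1, and the median of the list was 15. Of the Smad3 peaks 4 of 9, and of the Runx1 peaks 4 of 10, reached the list's upper quartile of 20 tags, as did 26.4% of all listed peaks. Scores ran from 9 to 37 with a median of 15 at Smad3 and from 9 to 32 with a median of 17.5 at Runx1, against 13 in the list. By count, 1 peak stood above the rest in both loci, and the other peaks had at most 24 tags. The variance of the tags was 4.39 times their mean at Smad3 and 2.98 times at Runx1. Unselected equal peaks with counting error alone would have a ratio near 1. The members were selected on their tags, so that value need not apply to them. Without the strongest peak of each locus, a setting chosen after seeing the data, these ratios were 1.38 and 1.23. Leaving out the highest count tends to lower this ratio in any set of counts, so nothing particular to these loci is read from the drop.

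Median enrichment over input was lower in the Smad3 window than in the list, at 7.41-fold against 10.6-fold. At least 8-fold enrichment was listed for 3 of 9 Smad3 peaks, or 33.3%, and for 61.5% of all listed peaks. The Smad3 share rests on 9 neighbouring peaks of 1 sample, so its difference from the list was not tested. The list's median and share include the 16.8% of peaks with input at the lowest value. The high fold of those peaks measures no ratio. At Runx1 the median was 9.26-fold and 5 of 10 reached 8-fold, among them peak 3 with input at the lowest value. Pooled over members, 181 ChIP tags against 23 input tags gave Smad3 8.32-fold (5.38 to 13.5), and 193 against 27 gave Runx1 7.56-fold (5.04 to 11.8); these intervals overlap widely. Input per peak ran from 0.9 to 4.7 scaled tags with a median of 2.8 at Smad3, and from 0.5 to 5.7 with a median of 1.9 at Runx1, which was also the median of the list. Fewer than 5-fold over input were 1 of 9 Smad3 peaks and 3 of 10 Runx1 peaks, where 9.75% of listed peaks were. Input at the lowest value was found in none of the 9 Smad3 peaks and in 1 of 10 Runx1 peaks, where 16.8% of listed peaks had it.

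**Figure D3:**
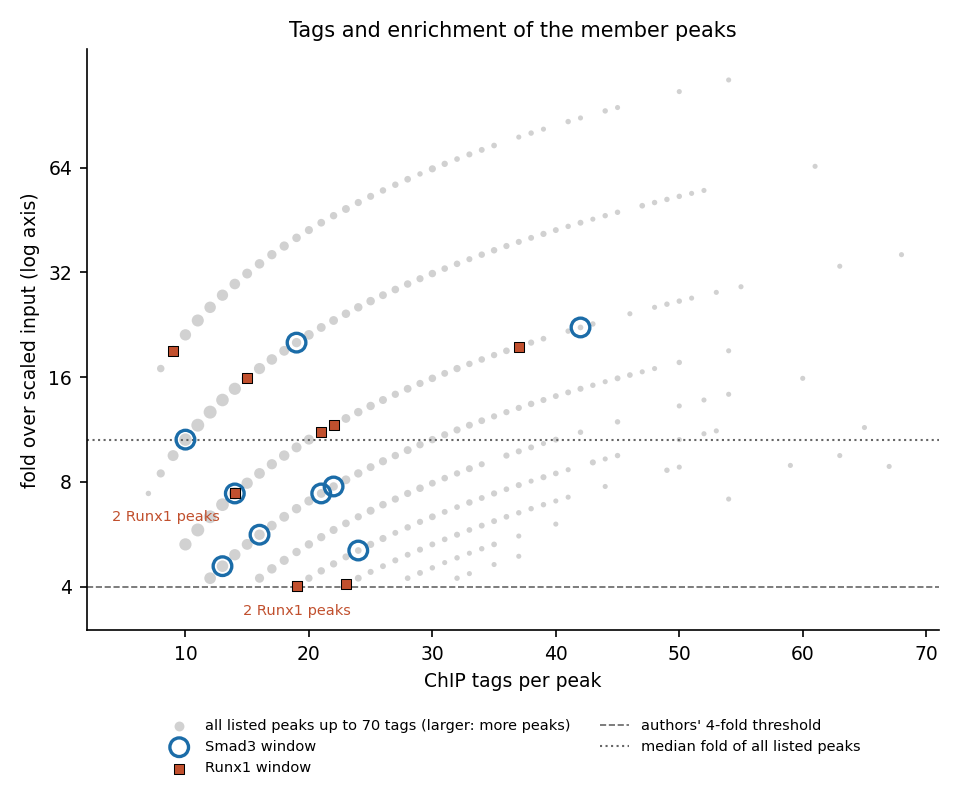
ChIP tags per peak (horizontal) and fold over scaled input (vertical, log axis) for the 9 Smad3 peaks (open circles), the 10 Runx1 peaks (squares) and all listed peaks of up to 70 tags (grey). Each grey curve is 1 whole number of input tags, except the uppermost. That curve holds the peaks with input at the lowest value, whose fold measures no ratio, and Runx1 peak 3 lies on it. The peaks of 42 tags (Smad3) and 37 tags (Runx1) lie on the same curve of 2 input tags. Near the dashed 4-fold threshold lie 3 Runx1 peaks.

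The ChIP signal around the peaks was above that of the typical listed peak. Dividing the tags of a peak by its deposited fold over the surrounding region gives the local background per peak that this fold implies. Its median was 2.68 tags at Smad3 and 2.73 at Runx1, against 1.93 in the list and 0.831 expected from the depth of the library alone. It reached the list's upper quartile of 2.59 at 7 of 9 Smad3 peaks and 7 of 10 Runx1 peaks, where 25% of listed peaks did. Members close to each other share part of their surrounding region, so they are not independent and these shares were not tested. The highest values were 5.11 at Runx1 peak 7 and 6.94 at Runx1 peak 8; no Smad3 peak exceeded 3.79. The caller took the local region as 10000 bp, so neighbouring peaks can enter it, and their part in these values was not tested. The 4 Runx1 peaks with no listed neighbour within 10 kb, peaks 1, 2, 5 and 6, had values of 2.46, 2.75, 2.71 and 2.65.

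Both windows were among the denser stretches of their length. Chromosome 9 had 0.448 and chromosome 16 had 0.372 listed peaks per 100 kb, so the Smad3 window was 11.8 times and the Runx1 window 7.92 times as dense as its chromosome. When the genome was laid out in 14930 windows of 170 kb, 0.255% held at least 9 peaks, and of 7462 windows of 340 kb, 1.01% held at least 10. The windows were picked for their peaks and placed around them, so these shares describe rarity in the list and say nothing of chance. A run of 9 peaks as close as the 9 at Smad3 was found at 4 separate places in the whole list, Smad3 included. A run of 10 as close as the 10 at Runx1 was found at 94 places, Runx1 included. A run of that kind started at 0.045% and at 4.02% of listed peaks.

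**Figure D4:**
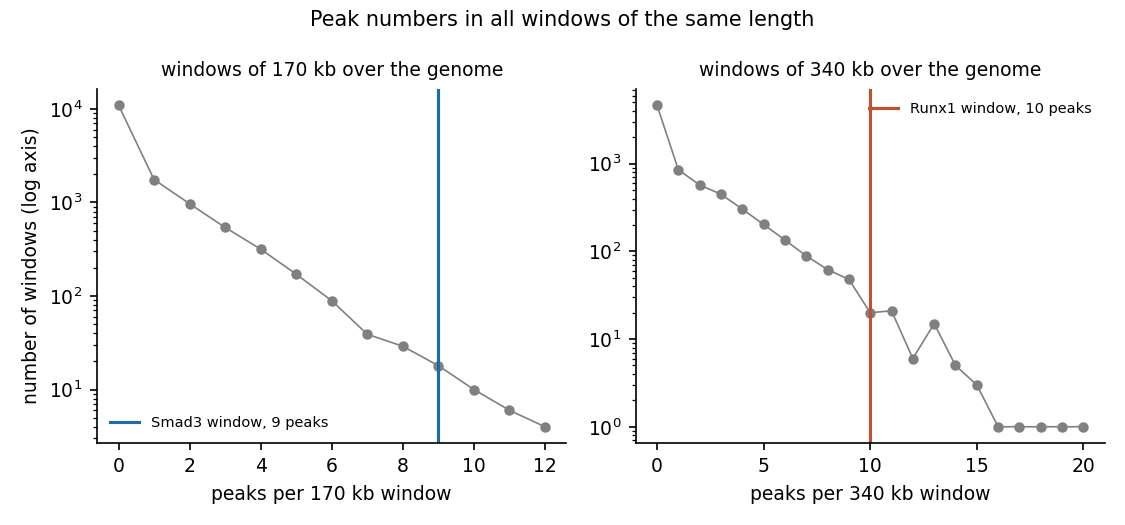
Number of windows (log axis) by the number of peaks they hold, for windows of 170 kb (left) and 340 kb (right) laid end to end from the first listed peak of each chromosome. Vertical lines mark the Smad3 window with 9 peaks and the Runx1 window with 10; most windows hold no peak, and the highest numbers were 12 and 20.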

How the data were processed

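REV-ERBα ChIP (1 sample) and input (1 sample) from Th17 cells were sequenced. Reads were handled with CASAVA 1.8.2, Bowtie and HOMER on mm9, per the submitters' processing notes. For Bowtie and HOMER, versions are not given in the sources used for this text. The authors called peaks with HOMER findPeaks on 6390234 ChIP tags against input, per the file headers, with a peak size of 306 bp, a threshold of 9 tags at a false discovery rate of 0.001, and filters of 4-fold with a Poisson p of 1e-04, applied once against input and once against 10000 bp around the peak.

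Total tags are counts, deposited without normalization. The deposited normalized tags (scaled to 10000000) and input tags (scaled to the ChIP depth) are signals. Deposited fold values are linear ratios, the deposited p-values are the caller's Poisson values, and the deposited score is the peak height with at most 1 tag per bp considered. Input tags of a peak were recovered by dividing its tags by its fold: values were whole multiples of 0.945 to within a relative 0.0012 in 7392 peaks, and the other 1492 were listed at the lowest value.

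Members were selected by midpoint in Python 3.11.15 (pandas 2.3.3, numpy 2.4.6). Intervals came from scipy 1.17.1 and figures from matplotlib 3.10.9. Selection and distance to the nearest peak were checked on 20 simulated lists. For runs, that check covered only that every peak was assigned, not where runs begin and end. Counts carry exact Poisson intervals; folds and the ratio of densities carry exact binomial intervals of the paired counts, in which tags or peaks are taken as independent. Every member was named, with the nearest listed peak outside each edge. The members, windows and bins were chosen with earlier results of these data known. Alternatives covered the fold and score thresholds, window edges, overlap rule, neighbour distance and counting of runs. Peak sequences and mm9 gene annotation were not used here.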

Additional observations from a re-analysis of the deposited data

How the results depend on the processing

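The densities of 5.29 (Smad3) and 2.94 (Runx1) peaks per 100 kb stayed within their counting intervals when any overlap or the whole peak was required, when the windows were shortened or lengthened by 10 kb, when peaks at the lowest input were left out or when the score had to reach the list's median. Across these the ratio ran from 1.71 to 2. Requiring at least 8-fold over input left 3 Smad3 and 5 Runx1 peaks, 1.76 and 1.47 per 100 kb, a ratio of 1.2. The 5 included Runx1 peak 3, whose listed fold follows from the lowest input value. Counting runs of peaks once gave 1.76 at Smad3 and turned the ratio to 0.857, because Smad3 had more peaks per run. In each of these settings the Smad3 density fell below its counting interval of 2.42 to 10.05, while the Runx1 density stayed within its own. Settings chosen after seeing the data were the ratio of variance to mean without the strongest peak (1.38 at Smad3 and 1.23 at Runx1), the span between outer peaks (14.1 per 100 kb at Smad3, ratio 3.46) and the densest 170 kb at Runx1 (ratio 1). The span density of 14.1 lay above the Smad3 interval. Peaks with a neighbour within 5 kb were 44.4% at Smad3 and 40% at Runx1, where 18.5% of all listed peaks had one. Within 10 kb they were 100% and 60%, where 33.7% of all listed peaks had one. Within 20 kb they were 100% and 80%. The list's share at 20 kb was not counted, but the median distance to the nearest peak over the list was 20.3 kb. The median of 19 tags became 21 at Runx1 with at least 8-fold enrichment and otherwise stayed the same in both loci. No paired analysis was possible because there is 1 ChIP sample, and leaving out replicates was not possible for the same reason. At this depth, weaker sites stay under the threshold, and single folds rest on at most 6 input tags.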
